A study of Mus musculus with 7 samples.

Results

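Probes for 9 small RNAs of doubtful miRNA status were followed across mouse neocortex and astrocytoma. They were the probes for mmu-miR-720, mmu-miR-709, mmu-miR-762, mmu-miR-804, mmu-miR-1944, mmu-miR-2132, mmu-miR-2133, mmu-miR-2137 and mmu-miR-2183, 9 of the 566 mouse miRNA probes on a NanoString nCounter panel, which counts color-coded probes without amplification. The members were chosen by name, for small RNAs whose status as miRNAs is uncertain, and with their levels in the same 7 samples already known, including the values at 0 and the differences among tumors. Their levels are therefore given as a description, and no test of a member is used as support. The 3 normal samples were layers II to IV of the neocortex of wild-type CD1 mice on postnatal day 60. The 4 tumors came from CD1 mice carrying a transgene labelled hGFAP-HaV12-Ra (GFAP-HaV12-Ras in the design text), an activated Ras oncogene behind the human promoter of the astrocyte filament gene GFAP, a promoter that is also used by neural progenitors. Tumors 1, 2, 3 and 4 were collected on days 65, 104, 125 and 134, and all samples were from males except neocortex 2 and tumor 2, which were from females. The tumors differ in age and so came from different mice, but the labels do not say so of the 3 neocortex samples, whose spread may be partly technical. The groups also differ in tissue composition, since a tumor was set against upper cortical layers and not against normal astrocytes.

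A canonical miRNA is cut from a hairpin transcript by the nucleases Drosha and Dicer and then guides Argonaute proteins to messenger RNAs through its seed, bases 2 to 8 of the mature strand. Many early database entries rested on a few sequencing reads, and some of them were later recognised as fragments of abundant structural RNAs. Transfer RNA fragments are cut by other nucleases, and ribosomal RNA fragments can reflect processing or breakdown of ribosomes, so such probes can vary for reasons unrelated to miRNA genes. miR-720, which has been described in human cells as a fragment of a threonine transfer RNA, is the best known of the set. miR-709, a rodent sequence, has been reported in mouse cell nuclei as a regulator of the maturation of other miRNAs.

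RefSeq (GRCm38.p6) gave a mature sequence under the probe's name for 3 of the 9 members, and for 196 of all 566 mouse miRNA probes. A missing match by name is therefore no mark of these members. The 3 sequences are shown here because base composition and hairpin shape are the properties on which such entries are judged. Each is written 5′ to 3′ with the seed in capitals.
mmu-miR-762: gGGGCUGGggccgggacagagc
mmu-miR-804: uGUGAGUUguuccucaccugga
mmu-miR-2137: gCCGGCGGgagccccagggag

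The 3 seeds differed from one another. The seed of miR-762 occurred in 2 other mature mouse miRNAs of the table, miR-6940-5p and miR-7648-3p, neither of which had a probe on the panel under that name, and those of miR-804 and miR-2137 in none. Base composition set 2 of the 3 apart. The GC content was 81.8% for miR-762 and 85.7% for miR-2137, and only 1.04% and 0.46% of the 1738 mature mouse miRNAs in the table had as much or more. miR-804, at 50%, lay close to the median of 52.2%.

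The hairpins from which these strands are annotated are printed with the mature strand in capitals, to show where it lies. The Mir762 hairpin is at chr7:127708487-127708562 on the plus strand, Mir804 at chr11:50357785-50357879 on the minus strand and Mir2137 at chrX:72992079-72992144 on the plus strand.
Mir762: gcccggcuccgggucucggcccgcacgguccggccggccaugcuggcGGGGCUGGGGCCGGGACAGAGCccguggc
Mir804: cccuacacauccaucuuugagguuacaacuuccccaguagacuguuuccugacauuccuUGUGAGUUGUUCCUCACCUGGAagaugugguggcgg
Mir2137: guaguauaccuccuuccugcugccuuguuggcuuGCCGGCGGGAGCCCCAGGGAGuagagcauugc

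In all 3 hairpins the mature strand lay on the 3′ side, and RNAfold predicted a single loop, as it did for 94.5% of the 1005 mouse hairpins in the table. The predicted folding energy was -54.8 kcal/mol for Mir762, -28.6 for Mir804 and -24.6 for Mir2137. Per base, Mir762 at -0.72 kcal/mol was more stable than nearly all hairpins, with 0.697% as low or lower. Mir2137 at -0.37 and Mir804 at -0.30 were weaker than the median of -0.41. Of the mature bases, 19 of 22 were paired in miR-762, 17 of 22 in miR-804 and 17 of 21 in miR-2137, against a median of 81% over the 1635 mature strands that could be placed in 1 hairpin. The predicted fold is a description of the sequence and says nothing of processing in these samples.

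**Figure D1:**
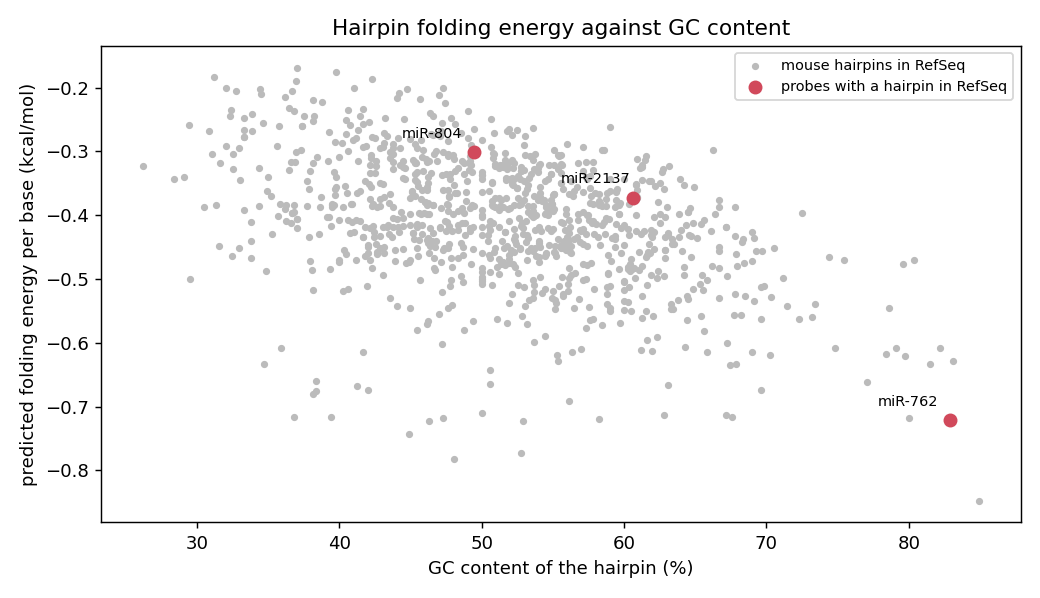
Predicted folding energy per base (kcal/mol, lower is more stable) against GC content for the 1005 mouse hairpins of the RefSeq sequence table used (grey) and the 3 members matched in it (red). Mir762 sits at the GC-rich, stable edge, at -0.72 kcal/mol per base, while Mir2137 and Mir804 lie inside the cloud at -0.37 and -0.30.

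All 3 loci overlap protein-coding genes in the RefSeq gene table of the same build. Mir762 overlaps Bcl7c, a chromatin remodelling subunit, Mir804 overlaps Cby3, a Chibby family gene, and Mir2137 overlaps Zfp185, an actin-associated LIM domain protein gene. Mir709, at chr8:84086099-84086186 in that gene table and not among the sequences used, overlaps Rfx1, a transcription factor gene. Exons and introns were not distinguished here, and the other 5 members had no gene of that name in the table.

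The deposited values are log2 levels scaled per sample, and a probe that fell under its sample's cutoff is listed at 0. That cutoff is not given in the sources used here and was taken as the lowest miRNA value listed in each sample. It was 4.65, 4.88 and 5.21 in neocortex 1, 2 and 3 and 3.64, 3.24, 3.78 and 3.09 in tumors 1 to 4. Taken back to the linear scale, the low values were whole multiples of 1 number per sample, which gave back the counts. The samples held 23539 to 60741 miRNA counts in neocortex and 117557 to 207981 in tumor, and a cutoff of 8 to 16 counts. Of the 33 viral miRNA probes, used here as controls, 1 or 2 were listed in each neocortex sample and 10 to 18 in each tumor. The highest of them lay at 4.75 to 5.38 in neocortex and 4.42 to 4.85 in tumor. The 3 plant and worm probes were listed in no sample, and of the 8 negative-control probes 1 or 2 were listed in each sample. The summed log2 level of 4 neuron markers was 13.38 to 13.92 in neocortex and 13.77 to 14.04 in tumor; among them miR-124 was lower in tumor (12.21 to 13.07 against 11.74 to 12) and miR-9, also made by neural progenitors, was higher (11.93 to 12.06 against 13.02 to 13.56). The sums of vessel and red blood cell markers were higher in every tumor than in every neocortex sample (10.23 to 10.59 against 10.67 to 11.66, and 8.07 to 8.51 against 8.63 to 9.40). Singly, only miR-126-3p (9.33 to 9.73 against 10.2 to 11.11) and miR-451 (7.34 to 7.95 against 8.04 to 8.86) did so. The groups overlapped for miR-126-5p, miR-143, miR-144, miR-486 and miR-145 (8.63 to 8.95 against 7.97 to 9.16 for the last). The sum of oligodendrocyte markers was lower (12.55 to 12.91 against 9.97 to 11.18), and that of white blood cell and microglia markers overlapped (8.13 to 8.59 against 8.25 to 9.39). The part of these differences in the members' levels was not tested.

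The 9 members fell into 2 kinds. miR-720, miR-1944 and miR-2183 were above the cutoff in all 7 samples. The other 6, miR-709, miR-762, miR-804, miR-2132, miR-2133 and miR-2137, were listed at 0 in every neocortex sample and above the cutoff in every tumor. That pattern was shared by 50 of all 566 miRNA probes (8.83%). Among 4 markers of other tissues, chosen to lie at or near 0 in brain, miR-1 and miR-208a showed it. They lay at 4.51 to 5 and 3.17 to 4.03 in the tumors. The others, miR-122 and miR-133a, did not show it, being listed in neocortex 2 at 5.14 and 5.65. Together the members took 9.96% ± 1.15 (SD, n = 3) of the neocortex miRNA signal and 9.03% ± 0.73 (SD, n = 4) of the tumor signal, nearly all of it miR-720. Without miR-720 they held 0.436%, 0.398% and 0.475% in neocortex 1 to 3 and 1.92%, 0.651%, 0.686% and 0.847% in tumors 1 to 4. Values under the cutoff enter these shares as 0, so the neocortex shares leave out any signal the 6 members had there. In tumor 1, miR-2133 alone held 0.985%.

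**Figure D2:**
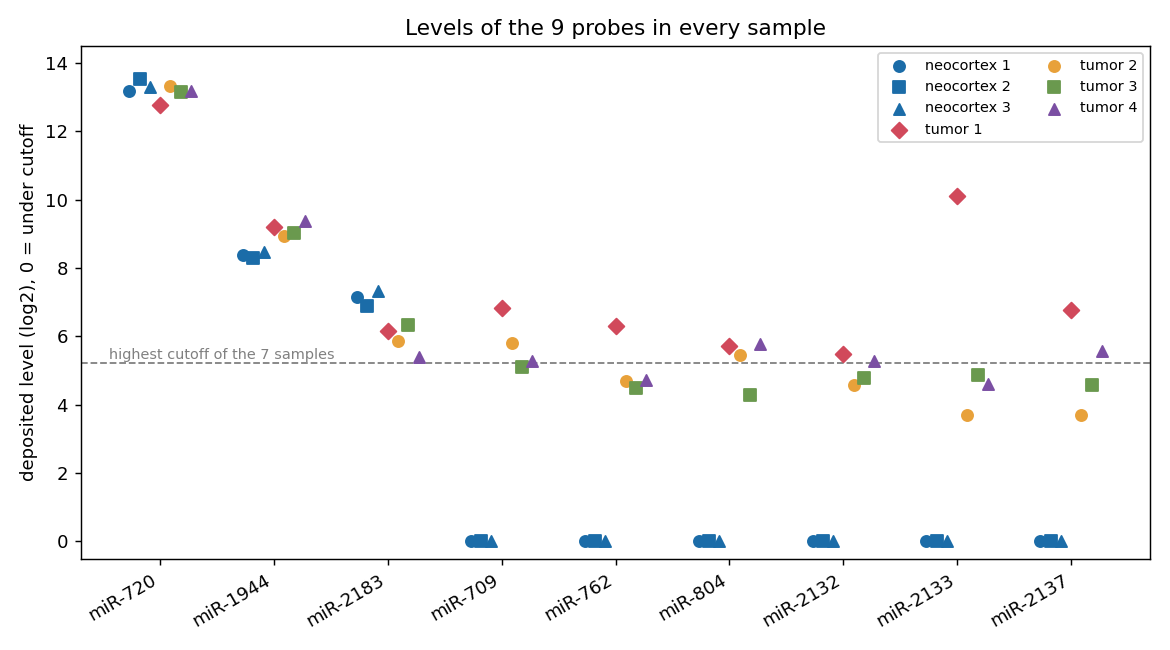
Deposited log2 level of each probe in every sample (blue, 3 neocortex samples; other colors, 4 tumors); the dashed line is the highest cutoff, 5.21, and points at 0 are values under their sample's cutoff. 3 probes are listed in all samples, 6 only in tumors, and tumor 1 (red diamonds) stands at 10.12 for miR-2133.

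miR-720 was the brightest miRNA probe in all 3 neocortex samples and ranked between 2 and 4 in the tumors. Its log2 levels were 13.17, 13.52 and 13.31 in neocortex and 12.77, 13.32, 13.15 and 13.18 in tumors 1 to 4. The groups overlapped, and tumor 1 was the lowest of the 7. The group means were 13.33 ± 0.18 (SD, n = 3) and 13.11 ± 0.24 (SD, n = 4), a log2 difference of -0.23 (SE 0.20). As a share of all miRNA signal, which does not depend on the scaling, miR-720 held 8.47%, 10.8% and 9.30% in neocortex and 6.18%, 9.21%, 8.24% and 8.41% in tumor. It was counted 2188 to 5148 times in neocortex and 7266 to 17486 times in tumor, so counting error is small beside the spread between samples. Scaled on the positive-control probes its difference was 1.48 and on the housekeeping mRNA probes -1.19, but these scalings moved the median of all tested miRNAs from 0.03 to 1.74 and -0.93. Relative to that median miR-720 lay at -0.26 under each of the 3, which follows from scalings that shift all listed values of a sample equally. Other alternatives could change it. It was -0.115 with every value raised to the highest cutoff. With 10 added to every linear value it was -0.197, and with the negative-control mean subtracted -0.341.

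The 2 probes whose pattern was most like that of miR-720 were the shared probe of miR-1937a and miR-1937b, entries also questioned as transfer RNA fragments, and miR-29c, of the miR-29 family, known for targeting collagen mRNAs. Likeness was the root mean square difference between log2 values centred on their mean over the 7 samples, and the value was 0.11 for the miR-1937a and miR-1937b probe and 0.12 for miR-29c, against a median of 0.46 over 196 probes. The miR-1937a and miR-1937b probe lay at 10.76, 11.00 and 10.88 in neocortex and 10.23, 10.73, 10.52 and 10.43 in tumor. It was thus lowest in tumor 1, as was miR-720. The gap between the levels of miR-720 and this probe ranged from 2.41 to 2.75 over the 7 samples, and the gap to miR-1937c, the remaining probe of that name, from 3.81 to 4.54. Both gaps are free of the scaling, and both averaged somewhat more in tumor, by 0.17 and 0.37.

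**Figure D3:**
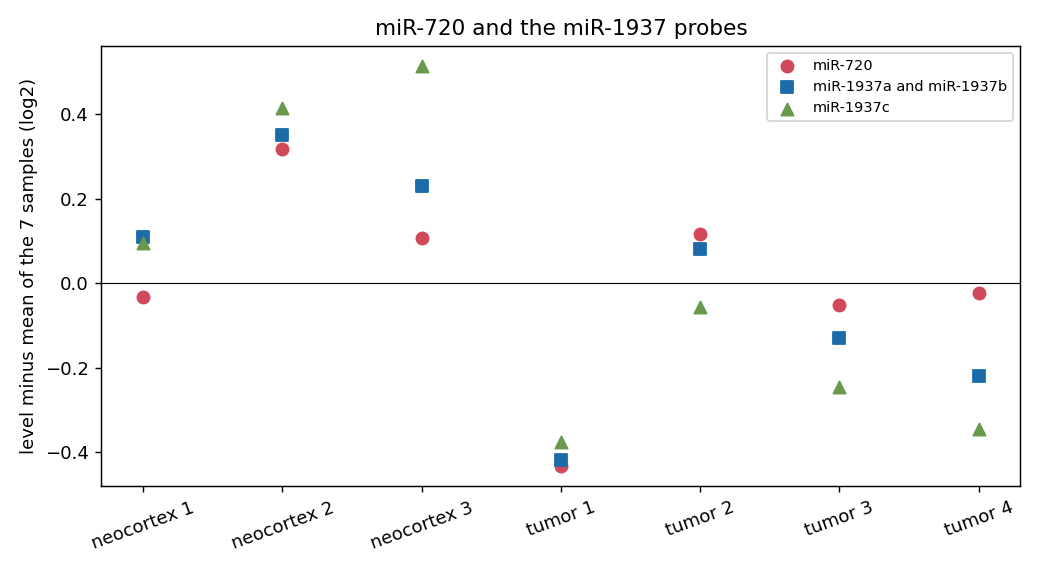
Log2 level of miR-720 (circles), the miR-1937a and miR-1937b probe (squares) and miR-1937c (triangles) in each sample, minus that probe's mean over the 7 samples. All 3 are lowest in tumor 1, and the 2 miR-1937 probes average lower in tumor than in neocortex.

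miR-1944 was higher in every tumor than in every neocortex sample. Its log2 levels were 8.38, 8.30 and 8.48 in neocortex and 9.20, 8.93, 9.02 and 9.37 in tumor. The means were 8.39 ± 0.09 (SD, n = 3) and 9.13 ± 0.20 (SD, n = 4), a difference of 0.74 (SE 0.18) or 1.67-fold. Its share of miRNA signal was 0.308% ± 0.019 (SD, n = 3) for neocortex and 0.507% ± 0.070 (SD, n = 4) for tumor. The counts were 186, 107 and 77 in neocortex and 612, 670, 604 and 1247 in tumor. On the housekeeping probes the difference turned to -0.22. That scaling moved the median of all tested miRNAs from 0.03 to -0.93, and relative to that median miR-1944 lay 0.71 higher in tumor under the deposited, the positive-control and the housekeeping scaling alike, since these scalings shift all values of a sample equally. The closest patterns were those of miR-22, a widely expressed miRNA, and miR-25, a member of a miR-17-92 paralog cluster, with root mean square differences of 0.12 and 0.16 against a median of 0.65. miR-22 lay at 10.22 to 10.27 in neocortex and 11.03 to 11.31 in tumor, so its groups did not overlap either.

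miR-2183 was the member whose levels were lower in every tumor than in every neocortex sample on the deposited scale. Its log2 levels were 7.14, 6.88 and 7.34 in neocortex and 6.15, 5.88, 6.33 and 5.39 in tumor, with no overlap. The means were 7.12 ± 0.23 (SD, n = 3) and 5.94 ± 0.41 (SD, n = 4), a difference of -1.18 (SE 0.27). Its recovered counts, which are not corrected for depth, were 79, 40 and 35 in neocortex and 74, 81, 94 and 79 in tumor. The highest neocortex sample thus lay within the tumor range and the other 2 below it. The samples held 23539 to 60741 miRNA counts in neocortex and 117557 to 207981 in tumor. Scaled on the positive-control probes, which track counting and not RNA content, miR-2183 reversed to 0.53; that scaling moved the median of all tested miRNAs to 1.74. Its share of miRNA signal, which no scaling alters, was 0.129% ± 0.020 (SD, n = 3) for neocortex and 0.057% ± 0.015 (SD, n = 4) for tumor. The negative-control probe NEG_D, which matches no mouse RNA, was likewise lower in tumor on the deposited scale and not in counts. It was counted 24, 18 and 12 times in neocortex and 14, 21 and 21 times in tumors 1, 3 and 4 (it was under the cutoff in tumor 2), while its deposited log2 level was 5.42 to 5.80 in neocortex and 3.48 to 4.17 in those tumors. With the mean of the negative-control probes subtracted, the difference of miR-2183 was -1.16 (SE 0.28). Negative controls under the cutoff entered that mean as 0. The part of background counts in the difference was not tested beyond this. The closest patterns were those of miR-544 and miR-883b-3p, with root mean square differences of 0.20 and 0.21 against a median of 0.62, and log2 differences of -1.16 (SE 0.26) and -1.42 (SE 0.35).

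**Figure D4:**
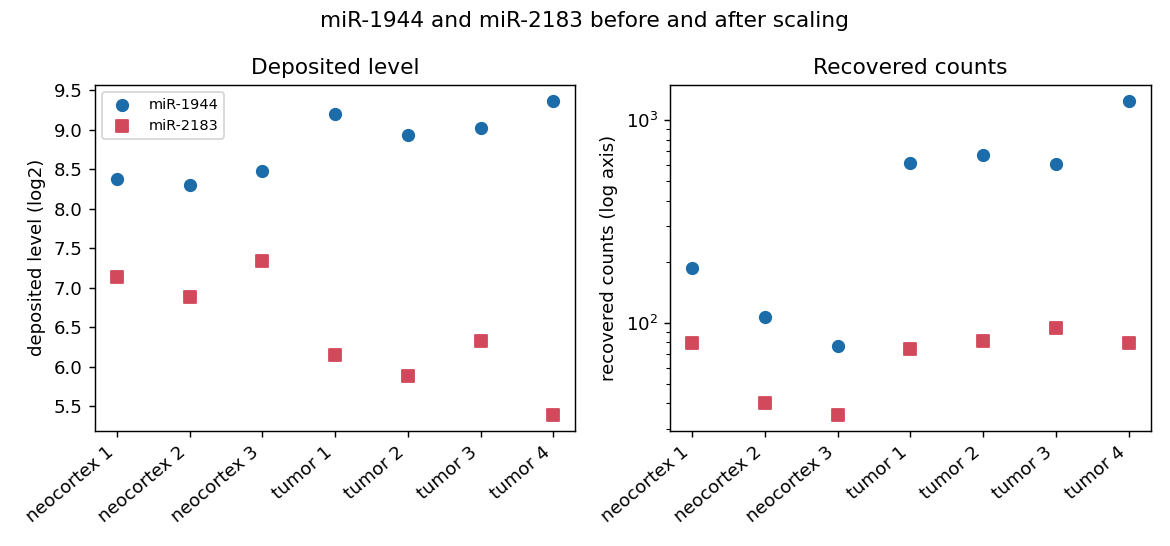
Deposited log2 level (left) and recovered counts on a log axis (right) of miR-1944 (circles) and miR-2183 (squares) in each sample. miR-1944 is higher in tumor on both scales, while miR-2183 is lower in tumor on the deposited scale but has 74 to 94 counts in tumor against 35 to 79 in neocortex. The counts are not corrected for depth, which was greater in every tumor than in every neocortex sample.

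The 6 members at 0 in neocortex were low in most tumors. A value of 0 means a level anywhere under the cutoff, and the neocortex cutoffs of 4.65 to 5.21 lay above many of the tumor levels themselves. Only 12 of the 24 tumor values of these 6 members exceeded 5.21, so for the other 12 an equal level in neocortex 3 would also have been listed at 0. The differences at a shared cutoff given below raise all lower values to 5.21. For these 6 members every neocortex value then becomes 5.21. The difference thus cannot be negative, and neocortex adds no spread of its own to the SE. These are bulk samples, in which fewer cells of a type and less RNA per cell cannot be told apart.

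miR-709 lay at 6.83, 5.81, 5.10 and 5.29 in tumors 1 to 4. It exceeded 5.21 in 3 of them and the highest viral probe in all 4. Its counts were 118, 77, 40 and 74. With every value raised to the shared cutoff of 5.21, its log2 difference between tumor and neocortex was 0.57 (SE 0.38).

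miR-804 lay at 5.72, 5.45, 4.30 and 5.79, with 55, 60, 23 and 104 counts. Tumor 3 stood below the other 3 and below the highest viral probe of that sample. At the shared cutoff the difference was 0.33 (SE 0.16).

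miR-762 lay at 6.30, 4.71, 4.48 and 4.73, with 82, 36, 26 and 50 counts. Tumor 1 was well above the other 3, which were at most 0.12 above the highest viral probe of their sample. At the shared cutoff the difference was 0.27 (SE 0.28).

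miR-2132 lay at 5.50, 4.59, 4.78 and 5.27, with 47, 33, 32 and 73 counts, and in tumor 2 it equalled the highest viral probe. It had the smallest range of the 6 members. Its difference at the shared cutoff was 0.09 (SE 0.11).

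miR-2137 lay at 6.76, 3.71, 4.59 and 5.58, with 113, 18, 28 and 90 counts. Tumors 1 and 4 were high, and tumor 2 was under its highest viral probe. At the shared cutoff the difference was 0.48 (SE 0.38).

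miR-2133 varied more among tumors than any of the 321 miRNAs above the cutoff in all 4. It lay at 10.12 in tumor 1 and at 3.71, 4.87 and 4.61 in tumors 2, 3 and 4. Against the highest viral probe of the same sample, it was lower in tumor 2, equal in tumor 4 and 0.45 higher in tumor 3. It was counted 1158 times in tumor 1 and 18, 34 and 46 times in the others, with exact Poisson 95% intervals of 1092 to 1227, 10.7 to 28.4, 23.5 to 47.5 and 33.7 to 61.4, which cover counting error only. In tumor 1 it ranked 20 among all miRNA probes and took 0.985% of the miRNA signal, and in the others 0.012% to 0.027%. The SD over the 4 tumors was 2.90, against a median of 0.30 over the 321 miRNAs. Its tumor mean of 5.83 rests on tumor 1 and is 4.4 without it. At the shared cutoff its difference was 1.23 (SE 1.23), and without tumor 1 all its values lay under that cutoff.

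The members did not vary together among tumors as 1 group. miR-709, miR-762, miR-2132, miR-2133 and miR-2137 were highest in tumor 1, miR-804 and miR-1944 in tumor 4, miR-720 in tumor 2 and miR-2183 in tumor 3. Those 5 of 9 stood beside 40.5% of all miRNAs above the cutoff in the 4 tumors. Under median, positive-control and housekeeping scaling 4 members were highest in tumor 1, and the share of all miRNAs was 23.4%, 19.9% and 18.1%. With 4 tumors no correlation is given. Tumor 1 exceeded every other tumor by over 1 on the log2 scale for miR-2133, miR-2137, miR-762 and miR-709, 4 of 9 members against 13 of 321 miRNAs (4.05%), a limit set after the values were seen. The excess over the mean of the other tumors was 5.72 for miR-2133, 2.13 for miR-2137, 1.66 for miR-762 and 1.43 for miR-709, where the median over the 321 miRNAs was 0.18 and 95% of them lay under 1.27. Under median, positive-control and housekeeping scaling 2, 2 and 1 members were past that limit, with 10, 7 and 6 of the 321 miRNAs (3.12%, 2.18% and 1.87%). These 4 members remained highest in tumor 1 under each of those scalings and miR-2132 did not.

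**Figure D5:**
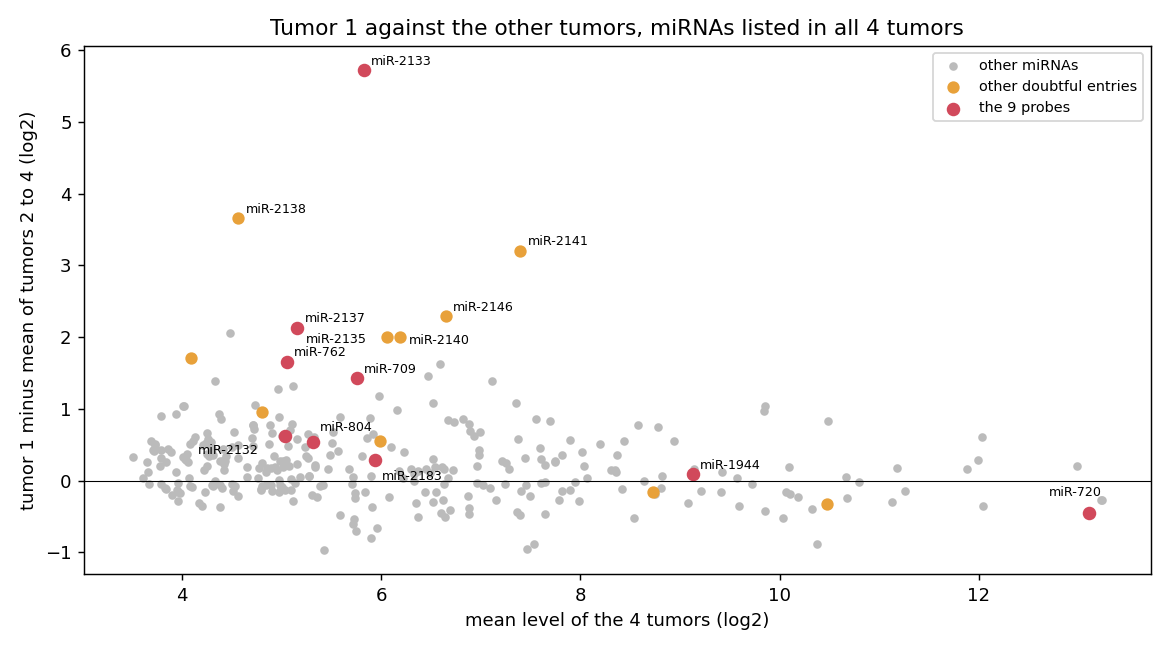
Log2 level in tumor 1 minus the mean of tumors 2 to 4, against the mean log2 level of the 4 tumors, for the 321 miRNAs above the cutoff in all tumors. The 9 probes are red and other doubtful entries orange; miR-2133 lies highest at 5.72, followed by miR-2138 and miR-2141, and miR-720 lies below 0.

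Other entries of doubtful status shared much of this order. Their list was written from general knowledge, but with earlier results of these data known, so the counts below are a description only. All of them are on the deposited scale, and the counts for this list were not redone under the other scalings. Of 36 names, 21 had a probe, 4 of them at 0 in all samples, and 10 were above the cutoff in all tumors. Of these 10, 8 were highest in tumor 1 and 6 exceeded every other tumor by over 1. The largest excesses over the mean of the other tumors were 3.66 for miR-2138, 3.20 for miR-2141 and 2.29 for miR-2146, named because they ranked directly after miR-2133 and so chosen after their values were seen. miR-2141 lay at 9.80 in tumor 1 and 6.52, 6.38 and 6.89 in the others, and at 7.21, 6.56 and 6.02 in neocortex, so it was not low outside tumor 1. With the 4 members, these 6 probes made up 10 of the 13 miRNAs past the limit. The remaining 3 were miR-494, miR-155 and miR-142-3p, again named after their values were seen. The 2 probes of the list with the highest mean, miR-1937a with miR-1937b and miR-1937c, were lowest in tumor 1, as miR-720 was. In the comparison of tumor with neocortex 8 of the list's probes were tested and 0 were called in either direction in limma (without adjustment, 0 and 1 had a p under 0.05 with tumor higher and lower; the groups did not overlap for 2, both lower in tumor), and their median log2 difference was 0.13 against 0.03 for all 283 tested.

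Tumor 1 differed from the other tumors in more than these probes. It came from the youngest mouse of the 4, and age and sample cannot be told apart. It had 117557 miRNA counts against 128438 to 207981. On the deposited scale 40.5% of the miRNAs above the cutoff in all 4 tumors were highest in tumor 1. That share was 23.4%, 19.9% and 18.1% under median, positive-control and housekeeping scaling, where the marker counts below were not redone. Vessel markers were highest in tumor 1 for 4 of 4 probes, with a summed log2 level of 11.66 against 10.67 to 11.00. White blood cell and microglia markers were highest there for 3 of 4, with a sum of 9.39 against 8.25 to 8.61, and the fourth, miR-142-5p, was at 0 in all samples. Red blood cell markers were highest there for 2 of 3, with a sum of 9.40 against 8.63 to 9.30, neuron markers for 3 of 4, with a sum of 13.83 against 13.77 to 14.04, and oligodendrocyte markers for 0 of 3, with a sum of 10.38 against 9.97 to 11.18. The part of these differences in the levels of miR-2133 and the other members was not tested.

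In the fit of tumor against neocortex over all 283 tested miRNAs (limma, Benjamini-Hochberg adjusted p under 0.05), 7 of the 9 members were called higher, against 8.13% of the miRNAs tested, and 1 lower, against 9.54%. The groups did not overlap with tumor higher for 7 members, against 13.8%, and with tumor lower for 1, against 19.1%. Nothing is read from these counts, because the members were chosen with the same values known. For 6 of the 7 the call also rests on values of 0 under differing cutoffs: at the shared cutoff only miR-1944 was called higher, and miR-2183 was still called lower. All 9 members passed the filter on low values, but those 6 passed it only through the tumors. The lower call of miR-2183 was lost without neocortex 3, tumor 1 or tumor 2. The call of miR-1944 was lost without neocortex 2, neocortex 3 or any 1 tumor. The call of miR-2133 was lost when any 1 sample other than tumor 1 was left out, and was kept without tumor 1.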

How the data were processed

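The values deposited by the authors are log2 levels, 1 column per sample, from the mouse miRNA panel (version 1.3) per the design text. How they were normalized and with what software is not given in the sources used here, nor is any background correction. The counts behind low values were recovered as whole multiples of 1 linear number per sample: between 150 and 263 values a sample, those of at most 60 counts, were examined, and 100% came out whole (within 0.02 counts, beyond what rounding to 2 decimals allows). Counts above 60 carry the rounding of the deposited decimals. No count model was run.

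The comparison of tumor with neocortex used R 4.3.3 and limma 3.58.1 (eBayes after lmFit, 2-sided, Benjamini-Hochberg adjustment) on the deposited log2 values of the 283 miRNAs averaging 2.80 or more across all 7 samples. The fit was tested on data simulated from miRNAs above the cutoff in all 7 samples. That test does not cover probes with values at 0, such as the 6 members at 0 in neocortex. Hairpins were folded with RNAfold 2.7.2. The members, the lists and the naming rule (all members, the 2 most alike probes of each member above the cutoff in all samples, and the 2 brightest other doubtful entries) were chosen with earlier results of these data known. The alternatives comprised scalings, the treatment of 0, filters, background subtraction, sex, a replicate block and each sample left out. The labels give same-numbered samples nothing in common but the number.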

Additional observations from a re-analysis of the deposited data

Results flagged for a closer look

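Among the 4 tumors, 3 of 18 values examined (the log2 level and the share of miRNA signal of each member) had 1 sample far from the others by Dixon's ratio of gap to range above its 95% critical value of 0.829. Chance gives about 1 in 20 for independent groups, but these members were chosen with the tumor differences known, and level and share are measures of the same probe, so the values are a description only. For miR-762, tumor 1 lay at a log2 level of 6.30 against 4.73 for the next tumor, a ratio of 0.863. Its share of miRNA signal in tumor 1 was 0.0697% against 0.0240% for the next (ratio 0.923). For miR-2133, the share in tumor 1 was 0.985% against 0.0265% for the next (ratio 0.985).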

How the results depend on the processing

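The shared cutoff was the alternative that mattered most for the members: with it 1 of 9 was called higher in limma in place of 7 (22 of all 258 tested). With only probes above the cutoff in every sample it was also 1 (18 of 197), but there the filter itself left 3 members to test. With the shared cutoff and tumor 1 left out together, chosen after seeing the data, it was 1 of 7 (21 of 252). Members called lower numbered 0 on the positive-control probes and 2 on the housekeeping probes, in place of 1. Over all miRNAs, 228 were called higher and 0 lower on the positive-control probes (unadjusted, 231 and 0), and 10 and 135 on the housekeeping probes, in place of 23 and 27; with no filter 67 were higher, with sex as a covariate 15 were higher, and with the requirement on all 7 samples 41 were lower. miR-2183 reversed to 0.53 on the positive-control probes and miR-1944 to -0.22 on the housekeeping probes. Members over 1 above every other tumor in tumor 1 were 4, and 2, 2 and 1 with median, positive-control and housekeeping scaling. With the replicate block (numbers 1 to 3, without tumor 4) 5 miRNAs were higher and 0 lower (at p under 0.05 in limma without adjustment, 28 and 31). Of the members, 3 were higher and 0 lower. The deviations of same-numbered samples correlated at -0.18, 0.25 and 0.13 across 197 miRNAs, which neither shows nor excludes a pairing by number. With 1 sample left out the calls ranged from 13 to 32 higher and 10 to 41 lower, and members called lower from 0 to 1. The cause of these changes was not tested beyond what each alternative does by construction. Depth limits the 6 members at 0 in neocortex, where 8 to 14 counts were needed to be listed.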

Other observations

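Some doubtful entries outside the 9 that were high in tumor 1 also differed among the neocortex samples. miR-2141, miR-2146 and miR-2140 lay at 7.21, 7.21 and 6.05 in neocortex 1, against 6.56, 6.51 and 5.36 in neocortex 2 and 6.02, 6.21 and 5.53 in neocortex 3, so all 3 were highest in neocortex 1. miR-2134 went the other way, with 4.84 in neocortex 1 and 5.56 and 5.67 in the other 2. These probes were singled out after their values were seen, and no test was made.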
